A study of Rattus norvegicus with 20 samples.

Results

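Chemokine and interleukin genes and their receptors were followed in left ventricle from 2 rat hearts, a normal and a failed one. The members were the genes whose symbol begins with Ccl, Cxcl, Ccr, Cxcr or Il and a digit. A gene with several probe sets was read from the one whose mRNA signal was highest on average. This gave 89 of the 14217 genes on the array, covered by 114 of its 31099 probe sets. By role they were 27 chemokine ligands, 11 chemokine receptors, 23 interleukin ligands, 24 interleukin receptor chains and 4 antagonists or binding proteins.

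The study used Dahl rats, a strain bred for the response of its blood pressure to dietary salt. It hybridised mRNA, input genomic DNA from before the immunoprecipitation (pre-IP), and ChIP products (chromatin immunoprecipitation) of 8 histone marks to Affymetrix Rat Genome 230 2.0 arrays. That made 20 arrays, 10 for each heart, with 1 array per assay and heart. The marks were acetylated H3 and H4 (H3ac, H4ac) and 6 lysine methylations whose histone is not named in the labels, K4me2, K4me3, K9me2, K9me3, K20me3 and K27me2. The failed heart is labelled as congestive heart failure (CHF), and a high-sodium diet is named for its mRNA sample alone. The age was 19 weeks, except that the normal H4ac label gives no age. That label also names pre-IP DNA as its source while its title, description and protocol name acetylated H4, so each H4ac value rests on an array whose label is inconsistent. A single left ventricle specimen served each experiment. The mRNA labels speak of left ventricular myocytes, yet all 7 fibroblast markers looked at had signals of 100 or more in both hearts.

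Chemokines are small secreted proteins that attract leukocytes along a gradient through G protein-coupled receptors. Interleukins are secreted signals between immune, stromal and parenchymal cells, and most act through receptor chains that pair on the target cell. In the heart both are best known for drawing in monocytes and lymphocytes and for acting on fibroblasts and myocytes after injury or pressure overload.

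With 1 array per group no error, p-value or replicate check could be had, so each difference below is a difference between 2 arrays. Array values were intensities, rescaled to a median of 100 with a floor of 10, and a difference is log2 failed minus log2 normal. A difference was counted as rose or fell at 2-fold (1 on the log2 scale), among genes whose mean level reached the median over all probe sets. Before rescaling, array medians ran from 189 to 415, and the floor touched 2.14% to 11.0% of the probe sets of an array. The ratio of the 3' to the 5' control probe set, a sign of RNA integrity and labelling, was 11.3 in the normal heart and 22.6 in the failed mRNA array for GAPDH, and 18.2 and 12.4 for beta-actin. What these ratios contribute to the results was not tested.

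Most members were weakly expressed. Of the 89 members, 28 (31.5%) had a signal of 100 or more in both mRNA arrays, against 60.5% of all genes. The floor was reached in at least 1 heart by 20 members (22.5%), against 9.98% of all genes. Another 41 lay between. Ccl11, Ccr4, Il10 and Il2ra were at the floor in both hearts. Il10 encodes an anti-inflammatory cytokine, and no difference can be read for it. Ccr2, the main receptor of Ccl2, had 11.8 in the normal heart and the floor in the failed heart. The signal reached 100 in both hearts in 10 of 27 chemokine ligands, 2 of 11 chemokine receptors, 4 of 23 interleukin ligands and 11 of 24 interleukin receptor chains. A signal depends on its probes as well as on the transcript, so levels are not ranked between genes.

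**Figure D1:**
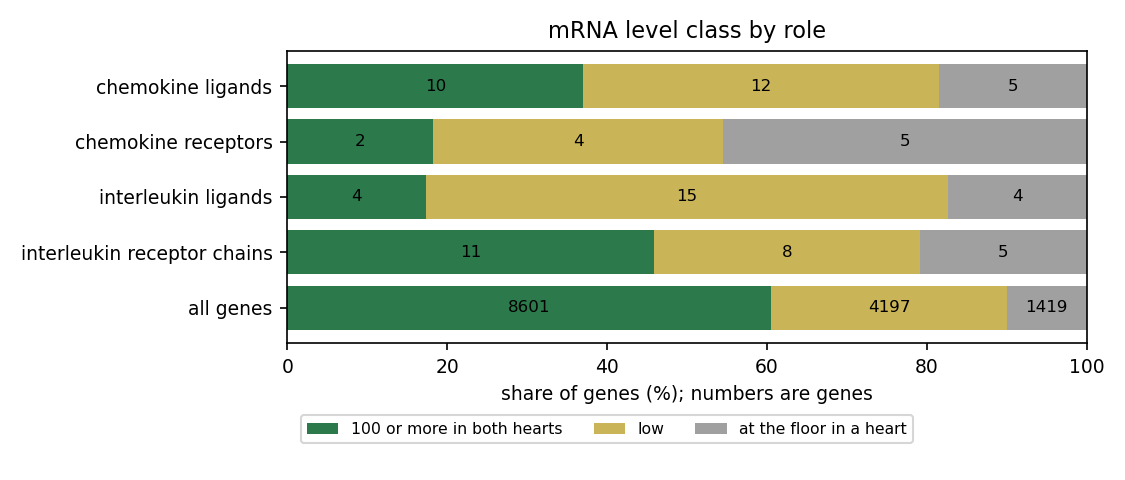
Number of genes in each role by mRNA level class. Detected means a signal of 100 or more in both hearts, floor means 10 in at least 1 heart, and low means the rest. Interleukin receptor chains have 11 detected genes of 24, and chemokine receptors 2 of 11.

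The members whose mRNA rose in the failed heart were ligands, and those whose mRNA fell were receptors. Of the 35 members that passed the level filter, 9 passed 2-fold in either direction, against 15% of all genes. Of the 35, 7 (20%) rose, against a background of 11.8% of all genes that passed. Another 2 (5.71%) fell, against 3.14% of all genes. All 7 that rose were ligands: Cxcl13, Cxcl16, Ccl21, Ccl6, Ccl2, Ccl19 and Il18. Both that fell were chemokine receptors, Cxcr5 and Cxcr3. The median difference was 0.84 over the 18 ligands and 0.16 over the 16 receptors that passed, beside 0.23 over all genes. Whether ligands and receptors differ could not be tested with 1 array per heart. The filter let in 7 members that were under 100 in 1 heart, Cxcl13, Il18 and Cxcr3 among them. Among the 28 members at 100 or more in both hearts, 5 rose and 1 fell, beside 10.8% and 2.24% of all such genes.

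The direction of the whole array depended on scaling. With values as deposited the failed array lost 0.27 on the log2 scale against the median scaling. All genes then split into 568 higher and 639 lower, in place of 1104 and 293, and quantile normalization gave 583 and 529. Under both, 5 members rose, namely Ccl2, Ccl21, Ccl6, Cxcl13 and Cxcl16, while Ccl19 and Il18 dropped under 2-fold. The share of members that fell went to 3 of 35 as deposited, where the receptor chain gene Il2rb joined. It went to 1 of 35 under quantile normalization, where Cxcr3 dropped out. Under both scalings the members that rose were all ligands and those that fell all receptors. The split did not hold under every setting. With no level filter 16 ligands and 3 receptors were higher and 6 ligands and 8 receptors lower. With the mean over probe sets 1 receptor, Il6st, was higher, and 1 of its probe sets was at the floor in the normal heart.

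The start regions of 5 ligands that rose are shown, so that members which moved together can be read side by side. Each is the 250 bases upstream of the gene's start in RefSeq, build GRCr8, printed 5′ to 3′ along the gene, with any motif found in capitals. RefSeq start regions were matched for 67 of the 89 members and for 7 of the 9 that rose or fell. Ccl2 and Cxcr5 were not matched.
Cxcl13 (chr14:13917921-13918170, minus strand): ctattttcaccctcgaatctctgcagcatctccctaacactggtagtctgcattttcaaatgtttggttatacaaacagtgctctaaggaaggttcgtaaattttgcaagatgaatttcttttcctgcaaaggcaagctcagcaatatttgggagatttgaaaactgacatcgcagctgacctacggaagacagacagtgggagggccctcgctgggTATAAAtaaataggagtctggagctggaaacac
Ccl6 (chr10:68883367-68883616, minus strand): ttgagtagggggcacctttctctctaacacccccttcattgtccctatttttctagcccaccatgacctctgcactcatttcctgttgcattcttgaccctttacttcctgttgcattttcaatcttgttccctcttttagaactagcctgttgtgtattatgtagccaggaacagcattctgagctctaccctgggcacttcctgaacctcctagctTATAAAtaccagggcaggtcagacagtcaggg
Ccl19 (chr5:61761165-61761414, minus strand): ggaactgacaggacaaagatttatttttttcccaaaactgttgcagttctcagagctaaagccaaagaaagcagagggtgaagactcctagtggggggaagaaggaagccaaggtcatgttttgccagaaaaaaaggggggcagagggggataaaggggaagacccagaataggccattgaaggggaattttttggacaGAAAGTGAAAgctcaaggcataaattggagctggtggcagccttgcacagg
Ccl21 (chr5:61777516-61777765, minus strand): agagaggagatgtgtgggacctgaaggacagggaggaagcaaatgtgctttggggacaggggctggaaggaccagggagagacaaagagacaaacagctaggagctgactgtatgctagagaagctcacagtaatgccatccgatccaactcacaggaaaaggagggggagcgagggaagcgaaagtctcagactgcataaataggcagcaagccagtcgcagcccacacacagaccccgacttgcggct
Cxcl16 (chr10:55669951-55670200, minus strand): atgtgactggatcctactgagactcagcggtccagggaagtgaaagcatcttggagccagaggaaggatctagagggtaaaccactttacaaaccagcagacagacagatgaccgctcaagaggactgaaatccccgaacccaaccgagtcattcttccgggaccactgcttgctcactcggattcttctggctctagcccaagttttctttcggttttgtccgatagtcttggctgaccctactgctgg
In Cxcl13 and Ccl6 the capitals mark TATAAA, the core of the TATA box, at -33 and -32 from the start. In Ccl19 they mark GAAAGTGAAA at -51, a match to the interferon response motif. The Ccl21 and Cxcl16 windows held none of the 5 motifs searched on both strands. The window of Il18, which also rose and was matched, is not printed and held none of them either. TATAAA stood in 16 of 67 member windows and in 12.9% of all 33469 windows of that length. The interferon response motif stood in 6, against 3.41% of all. The other searches found TGACTCA (AP-1) in 7 member windows against 4.05% of all, TTCNNNGAA (STAT) in 6 against 7.67%, and the NF-kappaB motif in 4 against 0.314%. Those 4 were Ccr3, Cxcl1, Cxcl6 and Il6. Of these, Cxcl1 alone passed the mRNA level filter, and it neither rose nor fell. Ccr3, Cxcl6 and Il6 were below the filter and could not be counted. The STAT and interferon response motifs can share bases, and a match describes letters, not a bound factor.

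Cxcl13, the chemokine that draws B cells into follicles, had a signal of 57.9 in the normal heart and 278 in the failed heart, a difference of 2.26 (4.80-fold). Its receptor gene Cxcr5 went the other way, from 350 to 120, a difference of -1.54. Another Cxcr5 probe set read 10 (the floor) and 12.9, a difference of 0.37, so the fall was seen with 1 of its 2 probe sets. B cell markers moved little: the summed signal of the 3 measured was 212 in the normal heart and 232 in the failed heart.

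Ccl19 and Ccl21 share the receptor Ccr7 and guide T cells and dendritic cells into lymphoid tissue. Ccl21 had 534 in the normal heart and 1499 in the failed heart, a difference of 1.49. Ccl19 had 109 and 219.9, a difference of 1.01 that sits at the 2-fold line. Both were higher in the failed heart, and they are neighbours in the rat genome together with Ccl27 and Il11ra1. Ccl27, a ligand known from skin, read 38.2 and 220.4, a difference of 2.53, but its mean level was just under the filter and it was not counted. Il11ra1, which overlaps Ccl27 by 5 bases in GRCr8, read 490.1 and 555, a difference of 0.18.

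Among the ligands known for monocytes, Ccl2 had 231 in the normal heart and 558 in the failed heart, a difference of 1.27. Ccl7, its neighbour and a second ligand of Ccr2, had 37.3 and 123, a difference of 1.73 below the filter. Ccl11, the eosinophil chemokine beside them, was at the floor in both. Ccl6, a rodent CC chemokine, rose from 346 to 884, a difference of 1.35. Its neighbours in the same cluster ranged from no difference to just under 2-fold. Ccl4 read 86.4 and 165, a difference of 0.94. Ccl5 read 175 and 219 (0.33), and Ccl3 read 116 and 119 (0.04). Cxcl16, a membrane-anchored chemokine and ligand of Cxcr6, rose from 429.5 to 1236, a difference of 1.52.

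The ligands of Cxcr3 were not among those that rose. These interferon-induced genes, Cxcl9, Cxcl10 and Cxcl11, are neighbours. Cxcl11 read 139 in the normal heart and 132 in the failed heart, a difference of -0.07. Cxcl9 read 112 and 60.5 (-0.89), and Cxcl10 read 81.0 and 56.4 (-0.52), both below the filter. Cxcr3 itself, carried by activated T cells, read 142 and 70.7, just past 2-fold lower. Of T cell markers, 9 were measured, 2 passed, 0 rose and 1 (Cd247) fell, beside 11.8% and 3.14% of all genes. Their summed signal was 582 in the normal heart and 482 in the failed heart, and Cd3e was at the floor in the normal heart.

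Neutrophil-attracting chemokines were close to or below the filter. Cxcl1 read 157 and 130.3 (-0.27). Cxcl2 read 10.2 and 42.9 (2.07), both low signals. Cxcl6 read 56.5 and the floor, at least 5.65-fold lower, and did not pass the filter. The neutrophil marker list summed to 148 in the normal heart and 328 in the failed heart over 3 measured genes, with Csf3r at the floor in the normal heart.

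Cxcl12, the stromal chemokine that holds stem and immune cells in place through Cxcr4, read 5403 in the normal heart and 4607 in the failed heart, a difference of -0.23. Its 3 probe sets gave differences from -0.72 to 0.31. Cxcr4 read 853 and 935, a difference of 0.13, with 3 probe sets from -0.38 to 0.37. Neither gene moved in one direction across its probe sets. Cxcl14 depended on the probe set altogether: the one used read 31.4 and 139.6 (2.15), while the other read 95.5 and 15.7 (-2.60). Ccr1, a receptor of Ccl3 and Ccl5, read 89.6 and 121 (0.43).

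**Figure D2:**
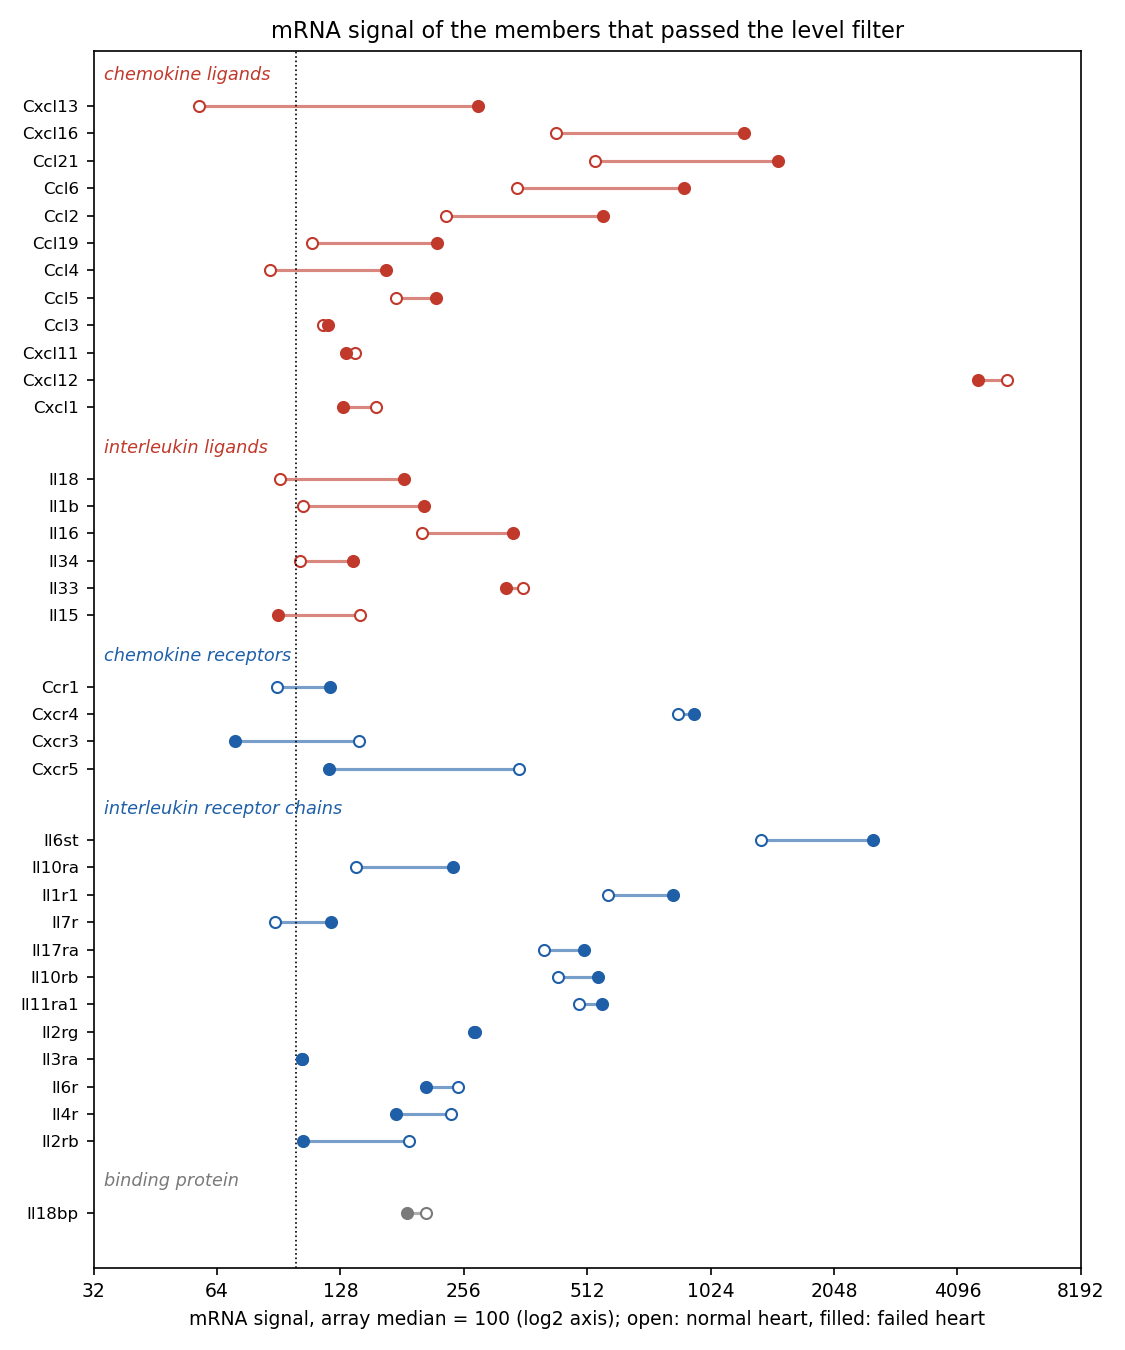
Signal of each of the 35 members that passed the level filter, in the normal heart and the failed mRNA array, on a log axis with array median 100 (dotted line). Lines join the 2 arrays of a gene. Cxcl13 goes from 57.9 to 278 and Cxcr5 from 350 to 120.

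**Figure D3:**
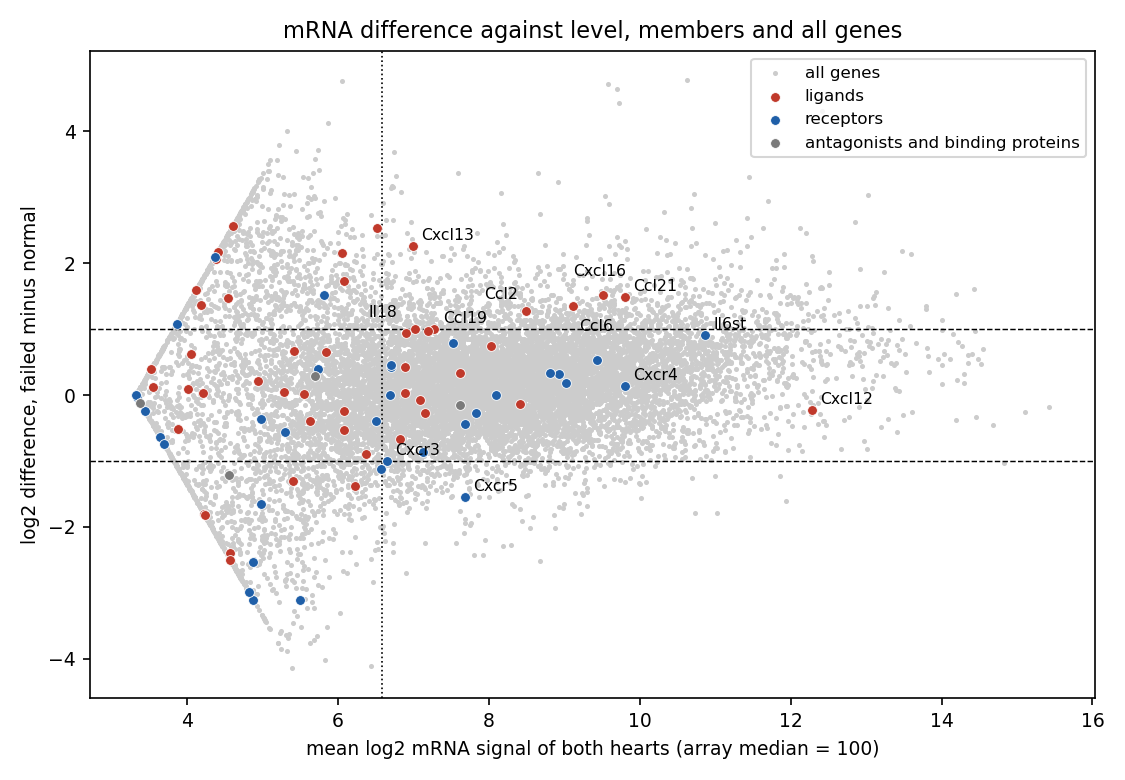
Log2 failed minus normal against mean log2 mRNA level of both hearts, for all genes (grey) and the members (ligands, receptors, antagonists and binding proteins). Dashed lines mark 2-fold and the dotted line the level filter. Of the 35 members to its right, 7 ligands lie at or above the upper line and 2 receptors at or below the lower one.

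Interleukin ligands gave 1 gene that rose among the 6 that passed, beside 11.8% of all genes. Il18, an interleukin-1 family cytokine released after caspase-1 cleavage, had 91.4 in the normal heart and 183 in the failed heart, just past 2-fold higher. Its soluble inhibitor gene Il18bp read 207 and 186 (-0.15). Il1b, the inflammasome's main product, read 104 and 205 (0.98) and stopped just short of 2-fold. Il16, a lymphocyte attractant, read 203 and 338 (0.74). Il34, the second ligand of the macrophage receptor Csf1r, read 102 and 137 (0.43). Il33, an alarmin of stromal cells, read 357 and 325 (-0.13), and Il15, a growth factor of NK and memory T cells, read 143 and 90.3 (-0.66). The other ligands most often named in heart failure were too low to compare. Il6 read 33.97 and 53.8 (0.66), Il11 read 15.6 and 16.6 (0.09), and Il1a read the floor and 59.1, at least 5.91-fold higher, while its other probe set gave -1.21. The antagonist gene Il1rn read 10.8 in the normal heart and the floor in the failed heart.

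Of the 12 interleukin receptor chains that passed, 0 rose and 0 fell, beside 11.8% and 3.14% of all genes. With 1 array a heart this count has no unadjusted test beside it. Il6st encodes gp130, the signalling chain shared by interleukin-6, interleukin-11 and LIF. It read 1358 in the normal heart and 2557 in the failed heart, a difference of 0.91, and its 4 probe sets gave 0.74 to 3.07, all above 0. The 3.07 came from a probe set at the floor in the normal heart, which read 84.0 in the failed heart. The others stayed under 2-fold (0.74, 0.91 and 0.93). With that floor value included, Il6st passed 2-fold only when the log2 values of its probe sets were averaged. The ligand-binding chains did not share that: Il6r read 248 and 207 (-0.26), and Il11ra1 was given above. Il1r1, the interleukin-1 receptor, read 577 and 831 (0.53), and all 3 of its probe sets were above 0. Il10ra read 140 and 241 (0.79), but its other probe set gave -0.58. Il10rb read 435 and 545 (0.33), and Il17ra read 401 and 503 (0.33). Il4r read 239 and 175 (-0.45), and Il2rb, a chain of the interleukin-2 and interleukin-15 receptors, read 188 and 104 (-0.86). Il2rg, the common gamma chain, stayed at 272 and 273. Il1rl1, the receptor of Il33, read 55.9 and 17.7 (-1.66) below the filter, and its other probe set went the other way (2.05).

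Probe sets of the same member did not always go the same way. Of the 17 members with more than 1 probe set, 6 had all probe sets on the same side of 0 (Il17re, Il1r1, Il1rap, Il6st, Il7 and Il7r) and 11 did not. No level filter was applied to this count, and floor values enter it. A Ccl22 probe set was at the floor in both hearts, and 1 each of Il6st, Il7 and Il7r in 1 heart. No share over all genes stands beside the count, so it is not read as a result about the members. Among the 54 members below the filter, 12 read 2-fold or more higher and 13 read 2-fold or more lower, 5 of each with 1 heart at the floor. Those shares, 22.2% and 24.1%, stood beside 20.5% and 19.7% of the 4900 genes below the filter.

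The other genes of these pathways came from lists given by role. Each count below stands beside 11.8% of all genes that passed that rose and 3.14% that fell. The median over all genes was 0.23. Of 10 measured chemokine family genes without a Ccl or Cxcl symbol, 6 passed, 2 rose and 0 fell, with a median of 0.68. Ackr1, the decoy receptor of venules and red cells, read 144 and 446 (1.63), and Cx3cl1, the membrane-bound fractalkine, read 161 and 328 (1.02). Of 7 measured gp130 family genes, 2 passed and 0 rose or fell. Of 21 measured JAK, STAT and SOCS genes, 12 passed, 2 rose and 0 fell, with a median of 0.59. Those were Ptpn11, a phosphatase of receptor signalling (2706 and 7057, 1.38), and Socs5, a feedback inhibitor (547 and 1169, 1.10). Stat3, the main gp130 transcription factor, read 827 and 1391 (0.75), and Socs3, its feedback inhibitor, was at the floor in both. Of 21 measured IL-1 receptor and NF-kappaB genes, 20 passed, 2 rose and 0 fell, with a median of 0.12. Myd88, the adaptor of interleukin-1 receptors, read 227 and 551 (1.28), and Tab2, an adaptor of the TAK1 kinase, read 1142 and 2548 (1.16). Of 16 measured chemokine receptor signalling genes, 11 passed, 1 rose and 0 fell, with a median of 0.43. That 1 was Rac2, the Rac GTPase of blood cells (94.97 and 329, 1.79). Of 8 measured adhesion genes, 5 passed and 0 rose or fell, and Vcam1 read 279 and 539 (0.95). Below the filter, Icam1 read 12.8 and 347 (4.76) and Selp read 35.1 and 138 (1.98), both named after their values were seen. As deposited and under quantile normalization Cx3cl1, Socs5 and Tab2 dropped under 2-fold, and Tyk2, a Janus kinase (690.2 and 382, -0.85), passed 2-fold lower. Ptpn11 also dropped out under quantile normalization.

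Markers of different cell types went different ways. Macrophage and fibroblast markers were higher in the failed heart, while smooth muscle markers were lower. Beside the counts below, 11.8% of all genes that passed rose and 3.14% fell. Of 13 macrophage markers, 12 passed, 7 rose and 0 fell, and none was at the floor. Their summed signal was 4158 in the normal heart and 13853 in the failed heart, and the lysozyme gene Lyz2 went from 1325 to 7658. Of 7 fibroblast markers, 3 rose and 0 fell, with a sum of 20123 and 42821. Of 4 general leukocyte markers, 1 rose (Laptm5), with a sum of 802 and 1085, while the pan-leukocyte gene Ptprc read 249 and 214 (-0.22). All 4 smooth muscle markers fell, from a sum of 4974 to 2092. Of 6 endothelial markers, 1 rose (Vwf) and 0 fell, with a sum of 11784 and 11103. Of 6 cardiac myocyte markers, 1 rose (Myh7) and 1 fell (Myh6), with a sum of 106486 and 121981. NK cell markers summed to 430.2 and 308, and mast cell markers to 328 and 205, with Kit at the floor in both hearts. In tissue RNA, more cells of a type and more RNA per cell cannot be told apart. The part of these markers in the member differences was not tested.

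The ChIP arrays read DNA under probes designed for transcripts, mostly at 3′ ends, so an enrichment describes that stretch and not a promoter. Enrichment was the log2 ratio of a ChIP signal to that heart's pre-IP signal, and all 8 mark differences share the same 2 pre-IP arrays. DNA signal was measured for most members: 72 of 89 had no value at the floor on any of the 18 DNA arrays.

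H3ac, H4ac and K4me2, marks known from active chromatin, had higher medians at detected than at floor-level members in both hearts. K4me3 did not do so in the normal heart. Its medians were 0.214 and 0.285 at detected members, and 0.218 and 0.209 at floor-level members. At the 28 members detected in mRNA the median K4me2 enrichment was 0.41 in the normal heart and 0.88 in the failed heart, and 18 of 28 were above 0 in both. Over all 8601 detected genes the medians were 0.03 and 0.08. At floor-level members the K4me2 medians were -0.316 and 0.642, and at low members 0.104 and 0.389. The H4ac medians at detected members were 0.22 and 0.44, beside 0.18 and 0.15 over all detected genes. At the 20 floor-level members H3ac had medians of -0.64 and -0.19, beside -0.37 and -0.31 over all floor-level genes. Across the 89 members, Spearman's rho of H3ac enrichment with the mRNA level was 0.33 in the normal heart and 0.272 in the failed heart. For K27me2 it was -0.24 and -0.305. Over all 14217 genes the H3ac values were 0.163 and 0.136 and the K27me2 values -0.221 and -0.25. The K4me3 values were -0.054 and 0.027 across the members, and -0.138 and -0.115 over all genes. These are descriptions across genes that share arrays and probe composition, and genes are not independent replicates.

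**Figure D4:**
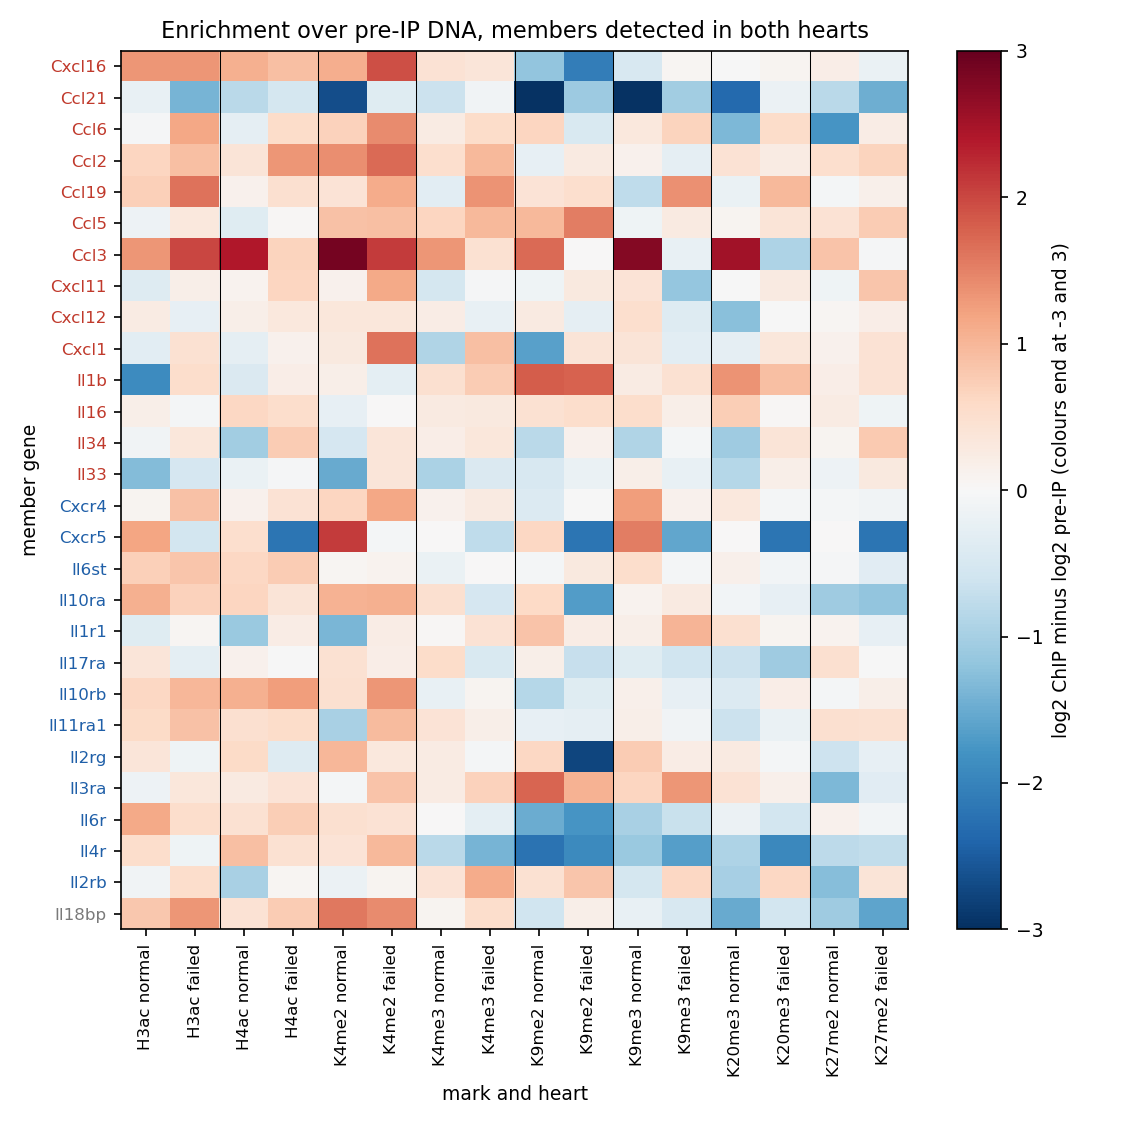
Heat map of log2 enrichment over pre-IP for 8 marks in each heart, at the 28 members detected in mRNA in both hearts. Over these 28 members the median K4me2 enrichment is 0.41 in the normal heart and 0.88 in the failed heart.

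Enrichments of single members are given first, and the shares of all genes past 1 or -1 in both hearts follow. Ccr10, the receptor of Ccl27 and Ccl28, had the lowest mean enrichment of K9me2, K9me3, K20me3 and K27me2 among members with no value at the floor. Its pre-IP signal was 835 in the normal heart and 704 in the failed heart. K4me2 enrichment was 1.82 and 2.56, whereas K9me2 was -3.25 and -4.17 and K9me3 was -2.47 and -3.11. Its mRNA read 85.8 and the floor. Ccl3 had K4me2 enrichments of 2.87 and 2.11, from ChIP signals of 160 and 345 over pre-IP signals of 21.8 and 80.1. Ccl2 had K4me2 enrichments of 1.40 and 1.70, and Cxcl16 had 1.09 and 1.92 together with H3ac of 1.33 and 1.32. Il1b had K9me2, a mark of silenced chromatin, at 1.81 and 1.77. Il4r had K9me2 at -2.22 and -1.92.

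Counts of such members are set beside the share of all genes. K4me2 enrichment reached 1 in both hearts in 10 of 46 members that passed the filter, against 17.7% of all genes, and no member was at or below -1 in both (1.31%). H3ac did so in 3 of 41 (9.66% of all genes), namely Ccl7, Ccr10 and Cxcl16, and H4ac in 3 of 39 (4.82%), namely Il10rb, Il17re and Il20rb, with none at or below -1 (1.34%). K9me2 reached 1 in 4 of 48 (4.46%) and was at or below -1 in 4 of 48 (8.56%). K9me3 reached 1 in 0 of 41 (2.34%) and was at or below -1 in 5 (4.81%) and K27me2 in 3 of 46 (6.38%), and K20me3 in 1 of 47 (3.94%), which was Ccr10. K27me2 reached 1 at Ccl17 alone (1.45% of all genes), and K4me3 reached neither side in any member (0.746% and 0.577% of all genes).

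Between the hearts, K4me2 and H3ac had members past 2-fold on the higher side and none on the lower side. For K4me2, of 46 members that passed, 9 rose and 0 fell, against 11.6% and 6.66% of all genes. The median difference was 0.54 over the members and 0.14 over all genes that passed. The 9 were 5 ligands, Ccl24, Cxcl1, Cxcl11, Il17b and Il33, and 4 receptors, Ccr2, Cxcr2, Il11ra1 and Il1r2. In mRNA, Cxcl1, Cxcl11, Il11ra1 and Il33 passed the level filter and stayed within 2-fold. Ccl24, Ccr2, Cxcr2, Il17b and Il1r2 were below the mRNA filter and could not be counted. In 7 of the 9 the pre-IP signal was lower in the failed heart (-1.06 in Cxcl11), which raises the enrichment difference, and the part of pre-IP in these rises was not tested. In ChIP signal alone, 5 of the 9 were higher by 2-fold or more (Ccl24, Ccr2, Il11ra1, Il1r2 and Il33), while Cxcl11 differed by -0.04 and Cxcl1 by 0.47. Ccr2 went from an enrichment of -1.55 in the normal to 0.75 in the failed heart, a difference of 2.30. Il11ra1 went from -0.97 to 0.96, a difference of 1.93, and Il33 from -1.51 to 0.37, a difference of 1.87. Scaling shifted all genes here: the shares that rose and fell were 6.83% and 11.2% with values as deposited, with 7 members higher and 0 lower, and 6.95% and 8.12% under quantile normalization, with 5 and 0. The median of the members was then 0.31 and 0.13, beside -0.09 and -0.04 over all genes.

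H3ac rose in 4 of 41 members, Ccl6, Ccr6, Il18 and Il1rap, and fell in 0 (10.7% and 8.65% of all genes). With quantile normalization it rose in 1 and fell in 0 of 39 (7.75% and 9.33% of all genes). The other 6 marks had members on both sides. H4ac rose in 1 and fell in 1 of 39 (4.91% and 6.49%). K4me3 rose in 5 and fell in 2 of 48 (8.89% and 9.84%), with Cxcl1 (1.80) and Ccl19 (1.68) the 2 largest. K9me2 passed 2-fold in either direction in 11 of 48 (25.3% of all genes): it rose in 7 and fell in 4 (16% and 9.3%), from Il10ra (-2.27) to Cxcl1 (2.01). K9me3 rose in 1, Il17b (1.64), and fell in 4 of 41 (9.14% and 11.4%). K20me3 rose in 5 and fell in 4 of 47 (8.91% and 8.56%). The 47 held 25 ligands and 20 receptors. All 5 that rose were ligands, and those that fell were 2 ligands and 2 receptors. K27me2 rose in 3 and fell in 2 of 46 (6.83% and 6.38%). Under the other scalings the counts are set beside the background they gave. For K9me2, 6 were higher and 6 lower as deposited (13.1% and 11.3% of all genes), and 7 and 8 under quantile normalization (15.8% and 15%). For K9me3 the counts were 1 and 3 (10.7% and 9.8%), then 3 and 4 (13.4% and 13%). For K4me3 they were 5 and 1 (9.25% and 9.41%), then 5 and 3 (9.39% and 11.7%). For K27me2 they were 3 and 2 (6.55% and 6.58%), then 6 and 2 (9.08% and 9.2%).

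**Figure D5:**
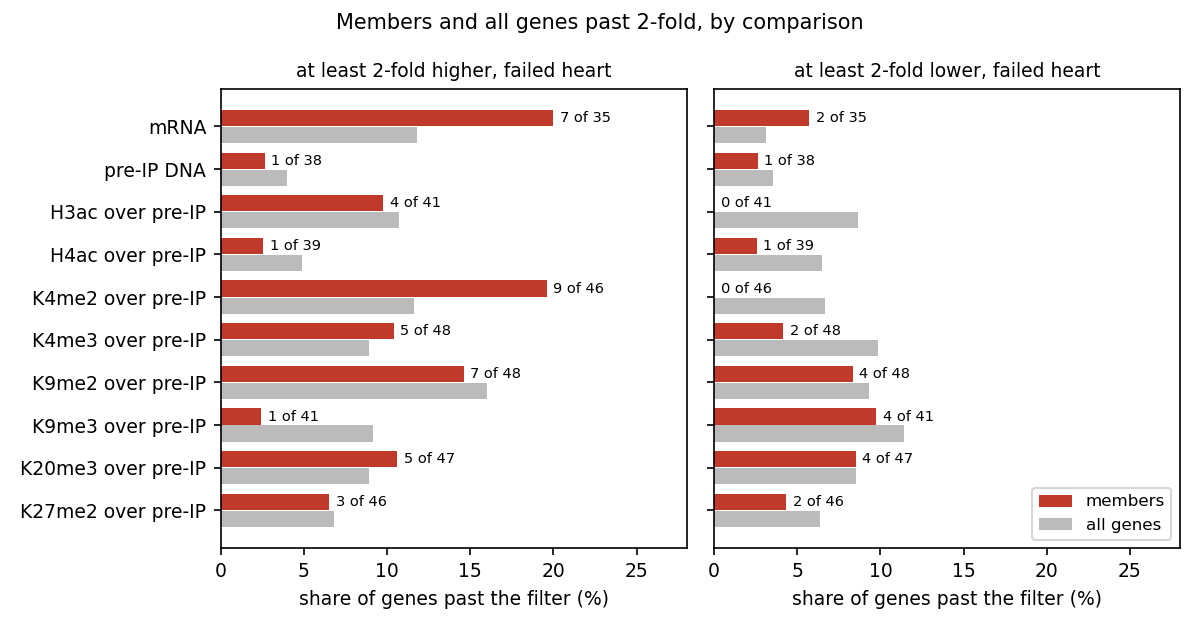
Share of genes that passed the level filter and reached 2-fold higher (left) or lower (right) in the failed heart, for the members and for all genes, in mRNA, pre-IP DNA and each mark. For K4me2, 9 of 46 members rose and 0 fell, beside 11.6% and 6.66% of all genes.

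Pre-IP DNA differed by 2-fold at 2 of 38 members (7.49% of all genes), 1 each way (3.96% and 3.53%). Il10ra had 92.8 in the normal heart and 241 in the failed heart (1.37), and Cxcl11 had 207 and 99.5 (-1.06). Cxcl1 followed with 542 and 298 (-0.86), and Il17ra with 221 and 349.8 (0.66). These values enter every mark difference of the gene. Il24, a cytokine of skin and immune cells, fell past 2-fold in 5 marks, and its pre-IP signal was 64 in the normal heart and 151 in the failed heart. In its ChIP signals alone the K9me3 array read 135 and 83.1, and the K27me2 array 130 and 151. Enrichment subtracts the pre-IP signal, so the pre-IP difference of 1.24 lowers every mark difference of Il24. Its K27me2 enrichment thus fell (-1.01) although the K27me2 ChIP signal was higher in the failed heart. What lay behind the pre-IP difference was not tested.

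Of 356 mark differences of members that passed the filter, 35 (9.83%) were higher and 17 (4.78%) lower, beside 9.61% and 8.42% of those of all genes. They lay in 32 of the 56 members that passed for at least 1 mark (57.1%, beside 56.1% of all genes). Of these 32, 20 passed 2-fold in 1 mark, 6 in exactly 2, and 6 in 3 or more (Ccl6, Ccr2, Cxcl1, Il17b, Il1r2 and Il24). No share of all genes stands beside this split, and all marks of a gene share the same 2 pre-IP arrays. The split is therefore not read as a result about the members. Among the 9 members that rose or fell in mRNA, 6 passed the filter for at least 1 mark, and 4 of the 6 passed 2-fold in at least 1, beside 54.4% of all such genes. Ccl6 rose in H3ac (1.20) and K20me3 (1.89) and fell in K9me2 (-1.10). Ccl19 rose in K4me3 (1.68) and K20me3 (1.18), Il18 in H3ac (1.27) and Cxcr3 in K4me3 (1.04). The pre-IP signal of Cxcr3 read 118 and 63.4 (-0.90), and that of Ccl19 read 114 and 68.5 (-0.73). Their ChIP signals differed less than their enrichments: the K4me3 array read 112 and 124 at Cxcr3, and at Ccl19 the K4me3 array read 90.6 and 175 and the K20me3 array 98.2 and 134. Cxcl13, Ccl21 and Cxcr5 had DNA signals too low to pass the filter for any mark, so no mark difference could be counted for them. Ccl2 and Cxcl16 passed for some marks and reached 2-fold in none. H4ac at Ccl2 came nearest, with enrichments of 0.39 and 1.32 and a difference of 0.93.

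By the pattern of all 8 enrichments in both hearts (16 values, Pearson r over all genes), the genes most like Ccl2 were Atraid (0.909), Irak4 (0.908) and Mxd3 (0.902). Those most like Il6st were Cyth2 (0.868), Dnajc14 (0.855) and Qrich1 (0.827), and those most like Cxcl12 were Psmb3 (0.878), Cars2 (0.873) and Tmie (0.85). The 16 values share the 2 pre-IP arrays.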

How the data were processed

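Left ventricle of 2 rat hearts was measured on 20 arrays. Per the labels' protocols, total RNA was made into biotinylated cDNA, and fragmented DNA was amplified by T7 transcription before labelling. The values the authors deposited are intensities on a linear scale, 1 per probe set and array. For the tool that summarised them, the sources used here give no name. Of 31099 probe sets, 57 were controls, 436 belonged to several genes and 20826 to 1 gene, of which 20758 matched the RefSeq gene table and 0 were renamed.

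Arrays were rescaled to a median of 100, floored at 10 and put on log2 with python 3.11.15, pandas 2.3.3, numpy 2.4.6 and scipy 1.17.1; figures used matplotlib 3.10.9. Counting used 2-fold (1 on the log2 scale) and a mean level no lower than the median of all probe sets, 6.59 on the log2 scale for mRNA. Counting was tested on simulated data. With 1 array per assay and heart no test was made, and the number of arrays limits the precision.

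The members, roles and gene lists were chosen with earlier results of these data known. Named genes were up to 10 of the largest mRNA differences each way among members that passed, a preset set of members, and for pre-IP and each mark the 2 largest differences each way and, for marks, the 2 highest and 2 lowest enrichments. Other genes were named after their values were seen. Alternatives were the scaling, floor, probe set rule, level filter and fold.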

Additional observations from a re-analysis of the deposited data

How the results depend on the processing

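Of the members higher in mRNA, 7 became 19 with no level filter and 1 at 3-fold. Of those lower, 2 became 1 with quantile normalization, 1 with the mean over probe sets (Cxcr5 was lost), 15 with no level filter and 0 at 3-fold. Over all genes the mRNA shares higher and lower were 14.8% and 8.85% with no filter, and 2.85% and 0.537% at 3-fold. For pre-IP DNA the count in either direction, 2, became 1 with the mean over probe sets, 12 with no filter and 0 at 3-fold. With no level filter the counts in either direction were 22 for H3ac, 23 for H4ac, 25 for K4me2, 17 for K4me3, 25 for K9me2, 24 for K9me3, 26 for K20me3 and 18 for K27me2. At 3-fold they were 0 for H3ac, 0 for H4ac, 3 for K4me2, 2 for K4me3, 5 for K9me2, 2 for K9me3, 1 for K20me3 and 0 for K27me2. No share over all genes is given beside these no-filter and 3-fold DNA counts, so they are not read as results about the members. Quantile normalization gave 1 for H3ac, 5 for K4me2 and 8 for K27me2. The median mRNA difference of ligands was 0.57 as deposited, 0.76 with quantile normalization, 0.94 with a floor of 50, where Ccl27 joined, and 0.27 with no filter. That of receptors was -0.11 as deposited, -0.04 with quantile normalization, 0.04 with the mean over probe sets and -0.04 with no filter. The mean over probe sets reversed Cxcl14 to -0.22 and Il1rl1 to 0.20, since their probe sets went opposite ways. For the other changes the cause was not tested.

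Alternatives for enrichment and for the pathway lists were chosen after seeing the data. Members past 2-fold the same way in both hearts were 1 for H3ac and 1 for H4ac as deposited and again with quantile normalization, 3 for K4me2 with quantile normalization, 2 for K20me3 under both and 2 for K27me2 as deposited. No share over all genes is given beside these enrichment counts, so they are not read as results about the members. The other chemokine genes past 2-fold numbered 1 under both scalings, the JAK, STAT and SOCS genes 1 with quantile normalization (Tyk2, lower), and the IL-1 receptor and NF-kappaB genes 1 under both. The floor of 50 took Cxcl2 to 0 and Il1a to 0.24 in mRNA. No paired analysis was possible because each group has 1 array, and for the same reason no replicate could be left out. Low signal limits the comparison: 54 of 89 members did not pass the level filter in mRNA, and 20 were at the floor in at least 1 heart.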
